A study of Mus musculus with 12 samples.

Results

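The transcripts of 10 skeletal muscle fiber genes, out of 47593 Ensembl genes, were followed in 12 mammary tumors from 9 MADM-mutant mice. The genes were chosen by name after their levels in tumors 3 and 4, which came from the same mouse, had been seen to stand apart, so their levels are given as a description. All tumors came from untreated mice with MADM RG;GR alleles on a mixed background, and the study describes them as MADM-Brca1-p53; MMTV-Cre females. In this model the mouse mammary tumor virus promoter drives Cre, and rare recombination between the 2 copies of chromosome 11 leaves GFP+ cells without Brca1 and p53 among heterozygous cells. About 50 mg of each tumor was homogenized without sorting of cells, so the RNA is that of all tissue in the piece. In 7 mice 1 tumor was sequenced, in 1 mouse 2 (tumors 3 and 4) and in 1 mouse 3 (tumors 10, 11 and 12), and there was no second condition and no normal gland. The ages of the mice were not used here.

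Skeletal muscle fibers are built from sarcomeres, in which myosin motors pull on actin filaments when calcium is released inside the cell. Fast and slow fibers use different genes for many of the same parts, so that the myosin heavy chain, the troponins and the calcium pump report the fiber type. In the mouse, Myh4 encodes the myosin of type IIb fibers, Myh1 that of type IIx fibers, Myh2 that of type IIa fibers and Myh7 that of slow type I fibers, which is also the slow myosin of the heart. The mammary gland lies in a fat pad under the skin, close to skeletal muscle of the body wall.

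Levels are the deposited TPM values, a unit in which the reads of a gene are divided by its length and each tumor is scaled to the same total. Since TPM keeps no number of reads, sequencing depth is unknown here and a value under 1 TPM cannot be set against a floor. The values of a tumor summed to between 999770 and 999909, with 21415 to 23443 genes above 0. Tumors 3 and 4 held epithelial transcripts, with the epithelial adhesion gene Epcam at 418 and 336 TPM and the luminal keratin Krt8 at 2192 and 1678 TPM. Tumor 2, also labelled a mammary tumor, was nearly without them, with Epcam listed at 0 and Krt8 at 0.326 TPM. Both were low in tumor 8 (2.03 and 128 TPM). The count of fiber genes that set tumors 3 and 4 apart is therefore also given without tumor 2. Fewer muscle fibers and less RNA per fiber cannot be told apart in such bulk samples.

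Myh1, Myh2 and Myh4 lie side by side on chromosome 11, the chromosome that is recombined in this model, and the DNA before their start sites is shown here because the 3 genes share a stretch that no other gene start in the RefSeq promoter table holds. Of the 10 genes, 8 had an entry in that table. The sequences run 5′ to 3′ on the strand of the gene, in build GRCm38.p6, from 250 to 61 bases before the RefSeq start for the myosins and from 250 to 1 for Pvalb, which encodes the calcium-binding protein parvalbumin of fast fibers. They cover chr11:67237562-67237751 for Myh4, chr11:67199852-67200041 for Myh1, chr11:67170777-67170966 for Myh2 and, on the minus strand, chr15:78206401-78206650 for Pvalb. In the myosins the last block of capitals is the shared stretch of 20 bases. The other capitals, before it in Myh4 and Myh1 and alone in Pvalb, mark a match to the MEF2 consensus, the motif of a family of muscle transcription factors.
Myh4: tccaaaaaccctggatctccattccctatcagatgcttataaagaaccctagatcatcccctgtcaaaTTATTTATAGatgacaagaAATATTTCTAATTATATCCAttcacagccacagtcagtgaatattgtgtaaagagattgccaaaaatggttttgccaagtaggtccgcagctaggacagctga
Myh1: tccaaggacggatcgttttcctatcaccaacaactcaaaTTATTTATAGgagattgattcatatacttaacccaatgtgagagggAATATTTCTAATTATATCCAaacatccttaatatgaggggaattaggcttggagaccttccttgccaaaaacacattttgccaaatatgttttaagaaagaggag
Myh2: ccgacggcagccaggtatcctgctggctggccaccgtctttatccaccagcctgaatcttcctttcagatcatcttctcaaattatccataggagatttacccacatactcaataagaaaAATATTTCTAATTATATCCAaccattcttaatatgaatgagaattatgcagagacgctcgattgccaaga
Pvalb: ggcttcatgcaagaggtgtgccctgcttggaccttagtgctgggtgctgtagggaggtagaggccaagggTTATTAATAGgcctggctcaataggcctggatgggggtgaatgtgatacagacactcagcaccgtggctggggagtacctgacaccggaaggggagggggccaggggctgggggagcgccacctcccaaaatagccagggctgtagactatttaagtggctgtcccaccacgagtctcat

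The shared stretch, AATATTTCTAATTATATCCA, began 163 bases before the start of Myh4, 165 before that of Myh1 and 130 before that of Myh2. On either strand it was found in 3 of 32851 promoters, those of these 3 genes. The MEF2 consensus occurred on either strand in the 250 bases before a start in 3 of the 8 genes, Myh4, Myh1 and Pvalb, and in 1.69% of all promoters. The E-box CANNTG, bound by myogenic regulators among other factors, occurred before a start in 6 of the 8 genes and in 66.2% of all promoters. The 8 genes had 10 promoters and a gene counted if any of its promoters matched, whereas the percentages count single promoters. For Pvalb the E-box lay in its other promoter and not in the one shown. These matches describe letters in a window and not sites of binding.

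Of the myosins, Myh4 (chromosome 11 from 67238029 to 67260446, plus strand, in GRCm38 as are all positions) was at 16.8 TPM in tumor 3 and 11.4 TPM in tumor 4. In the other 10 tumors it was listed at 0 in 8, with a highest value of 0.263 TPM in tumor 9. Both tumors of the one mouse thus lay above every other tumor in type IIb myosin. The type IIx myosin Myh1 (chromosome 11 from 67200052 to 67224575, plus strand) was at 5.91 and 4.35 TPM in tumors 3 and 4, against a median of 0.102 TPM in the other 10. Its highest value was 20.3 TPM, in tumor 9, so the groups overlapped. Myh2, of type IIa fibers (chromosome 11 from 67171027 to 67197517, plus strand), was at 1.76 TPM in tumor 3 and 1.73 TPM in tumor 4, with a median of 0 and a highest value of 2.55 TPM among the others, again in tumor 9. The slow myosin Myh7 (chromosome 14 from 54970684 to 54994626, minus strand) was listed at 0 in tumor 3 and at 0.012 TPM in tumor 4. It did not exceed 0.0828 TPM in any tumor, so slow myosin was near 0 in all 12.

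As shares of the sum of the 4 myosins, Myh4 made up 67.0% ± 2.37 (SD, n = 2 tumors of 1 mouse), Myh1 24.5% ± 0.428, Myh2 8.53% ± 1.89 and Myh7 0.0341% ± 0.0482 in tumors 3 and 4. The order of the levels was therefore IIb, IIx, IIa and slow in each of these tumors, with the sums at 24.5 and 17.5 TPM. In tumor 9, with a like sum of 23.2 TPM, Myh1 took 87.5%, Myh2 11.0% and Myh4 1.13%. The sum was under 1 TPM in the other 9 tumors, and no shares were computed there.

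**Figure D1:**
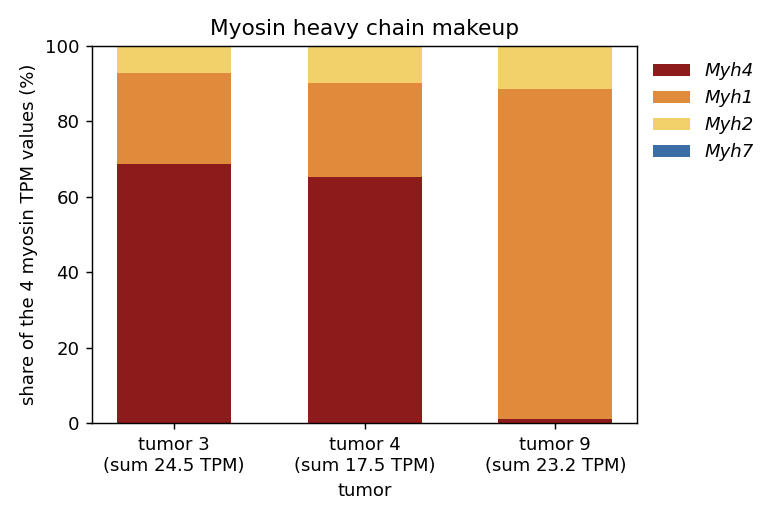
Share of each myosin heavy chain gene, in percent of the summed TPM of Myh4, Myh1, Myh2 and Myh7, in the 3 tumors where that sum was 1 TPM or more; each bar is 1 tumor and the sum stands under it. Myh4 takes 68.6% in tumor 3 and 65.3% in tumor 4 but 1.13% in tumor 9, where Myh1 takes 87.5%, and Myh7 is too small to be seen.

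The split between the fast myosins is uncertain to the extent that their transcripts are alike. Of the windows of 75 bases, the read length, in the longest coding transcript of Myh4, 9.68% occur unchanged in another myosin of the family searched (Myh1, Myh2, Myh3, Myh4, Myh6, Myh7, Myh8 and Myh13). The share was 16.6% for Myh1, most of it shared with Myh2 (12.6%), and 16.3% for Myh2. Of the Myh7 windows 15.3% occur in the cardiac myosin Myh6, and none in Myh1, Myh2 or Myh4.

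Of 9 neighbours of the fast myosins on chromosome 11, 2 were higher in tumors 3 and 4 than in every other tumor, Myh3 and Myh8, both under 1 TPM, and none of the 4 neighbours with a mean of 1 TPM or more did so, where 8.04% of all genes with such a mean did. Sco1, a copper chaperone gene of mitochondria, was at 6.83 and 7.42 TPM in tumors 3 and 4 against a median of 9.17 TPM elsewhere, and Adprm was at 13.7 and 17.8 TPM against 24.1 TPM. The embryonic myosin Myh3 did not exceed 0.347 TPM and the perinatal myosin Myh8 did not exceed 0.736 TPM in any tumor, both with their highest value in tumor 3. Myh13, the extraocular muscle myosin, was at most at 0.073 TPM. Trp53, which lies 2.32 Mb from the end of Myh4 and whose knockout allele is carried on this chromosome, was at 62.5 and 63.4 TPM in tumors 3 and 4, within the range of the other tumors. Brca1, on the same chromosome, was at 20.3 TPM in each, below only tumor 2.

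Among the calcium-handling and regulatory genes, Tnnc2, the calcium-binding troponin C of fast fibers (chromosome 2 from 164777161 to 164779967, minus strand), was at 36.5 TPM in tumor 3 and 31.3 TPM in tumor 4. It was listed at 0 in all of the other 10 tumors. Pvalb (chromosome 15 from 78191114 to 78206400, minus strand), whose product speeds relaxation by buffering calcium, was at 21.9 and 16.7 TPM and likewise listed at 0 in all of the other 10. Tnnt3, the troponin T of fast fibers (chromosome 7 from 142498836 to 142516009, plus strand), was the highest of the 10 genes in both tumors, at 48.0 and 35.9 TPM. Its median elsewhere was 0.615 TPM, with 5.22 TPM in tumor 2 as the highest. Atp2a1, the calcium pump of the sarcoplasmic reticulum of fast fibers (chromosome 7 from 126445858 to 126463108, minus strand), was at 13.9 TPM in tumor 3 and 11.1 TPM in tumor 4, with at most 0.797 TPM elsewhere. These 4 genes separated the mouse of tumors 3 and 4 from every other tumor.

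Actn3, the alpha-actinin that anchors thin filaments in fast fibers (chromosome 19 from 4861216 to 4877909, minus strand), was at 11.3 and 9.62 TPM in tumors 3 and 4. It was listed at 0 in 8 of the other tumors and reached 0.568 TPM in tumor 8. Ckm, the creatine kinase that regenerates ATP in muscle of both fiber types (chromosome 7 from 19404776 to 19422841, plus strand), was at 25.3 TPM in tumor 3 and 16.7 TPM in tumor 4. Tumor 2 was at 23.7 TPM, between these 2 values, while 7 of the other tumors were listed at 0 and none of the rest exceeded 0.142 TPM.

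**Figure D2:**
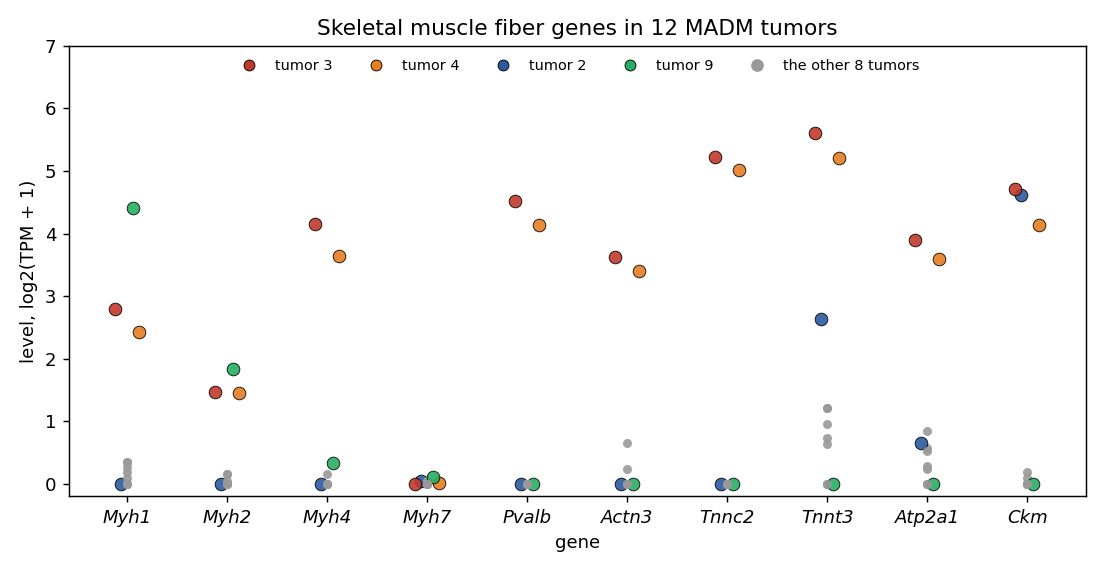
Level of each of the 10 genes on the log2(TPM + 1) scale, with 1 point per tumor; tumors 3 and 4 of one mouse and tumors 2 and 9 are coloured and the other 8 are grey. Tumors 3 and 4 lie above all grey points in every gene but Myh7, tumor 9 exceeds them in Myh1 and Myh2, and tumor 2 lies between them in Ckm.

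In all, 6 of the 10 genes were higher in both tumors 3 and 4 than in every other tumor (Myh4, Pvalb, Actn3, Tnnc2, Tnnt3 and Atp2a1), where 8.04% of the 16779 genes with a mean of 1 TPM or more did the same. With tumors 2 and 9 left out, a choice made after seeing the data, 9 of 10 did so, all but Myh7. Of these, 8 had a mean of 1 TPM or more, beside 12.4% of the genes with such a mean. Without tumor 2 alone 7 did, Ckm being added, all with such a mean, beside 10.8% of genes. On the log2(TPM + 1) scale, 2 of the 10, Tnnc2 and Pvalb, passed a gap of 10-fold between the lower of tumors 3 and 4 and the highest of the others, where 0.0358% of genes did, with Pvalb the nearest inside at a gap of 4.14 and Myh4 the nearest outside at 3.30. For Tnnc2 and Pvalb, listed at 0 elsewhere, the gap is set by the pseudocount and is no fold change. Since these levels led to the choice of the genes, the counts describe them and support nothing. A total of 8 of the 10 passed the filter of a mean of 1 TPM, a mean that tumors 3 and 4 themselves raise, and Myh2 and Myh7 did not pass. The median gap was 2.66 over the 10 genes, 2.76 over the 8 that passed the filter and -0.91 over all genes that passed it. With 1 mouse set against 8, the smallest one-sided p of an exact permutation test would be 0.111, so the design could not give a p under 0.05.

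The amounts were small. The 10 genes together took 181 TPM in tumor 3, or 0.0181% of its total, and 139 TPM in tumor 4, or 0.0139%. The next sums were 29.5 TPM in tumor 2, of which Ckm made up 80.3%, and 23.2 TPM in tumor 9, of which Myh1 made up 87.5%. In the other 8 tumors the sum lay between 0.113 and 2.18 TPM. In tumors 3 and 4, by contrast, 9 of the 10 genes were at 1 TPM or more, and the highest, Tnnt3, took 26.4% and 25.9% of the sum.

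Ckm in tumor 2 thus lay between tumors 3 and 4, and Myh1 and Myh2 in tumor 9 above both, while most other fiber genes were listed at 0 there. Tumor 2 listed Tnnc2, Pvalb, Actn3 and all of the fast myosins at 0. In the same tumor Ckm was accompanied by Eno3, an enolase that is abundant in muscle, at 294 TPM, by the M-band gene Myom1 at 60.7 TPM and by the light chain Myl4 of embryonic and atrial muscle at 516 TPM. Tumor 9 listed Tnnc2, Pvalb, Actn3, Tnnt3, Atp2a1 and Ckm at 0, whereas Nrap, a gene of myofibril assembly, was at 12.7 TPM, titin (Ttn) at 3.04 TPM and the smooth muscle myosin Myh11 at 250 TPM. Mybpc2, a fast fiber gene outside the 10, was at 15.1 TPM in tumor 9 and 6.11 TPM in tumor 2. In tumors 3 and 4 Mybpc2 was at 8.31 and 6.65 TPM. The values of Eno3, Myom1, Myl4 and Myh11 were the highest of the 12 tumors in each case, and their part in the levels of Ckm and Myh1 was not tested.

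Wider lists of fast and slow genes were also described, but 8 of the 14 fast genes and 1 of the 11 slow genes were among the 10 chosen for their levels, so the lists give no independent evidence of a direction. Of the 14 fast genes 10 were higher in both tumors 3 and 4 than in any other tumor, of which 6 were chosen genes and 4 were not (Mylpf, Myl1, Casq1 and Myoz1). Among the fast genes that passed the filter of a mean of 1 TPM, 9 of 12 did so, beside 8.04% of all genes. Most of these 9 passed only through tumors 3 and 4, which raise the mean, so the count supports nothing. The same limit holds for the filtered counts of the other lists. The list median was 15.3 TPM in tumor 3, 11.3 TPM in tumor 4 and at most 0.183 TPM in any other tumor. The highest fast gene was Mylpf, the regulatory light chain of fast myosin, at 107 and 66.8 TPM with 33.8 TPM in tumor 2. Myl1, the essential light chain, was at 36.2 and 24.1 TPM with at most 0.956 TPM elsewhere. The slow list held 11 genes, of which 3 lay above every other tumor, Tnni1, Mybpc1 and, at 0.971 and 0.324 TPM, Myoz2, and 1 of the 3 that passed the filter did so. Its median was 0.971 and 1.16 TPM in tumors 3 and 4 and at most 0.235 TPM in the others. The difference of the list medians on the log2(TPM + 1) scale was 2.78 ± 0.379 (SD, n = 2 tumors of 1 mouse) in tumors 3 and 4, and between -0.14 and 0.15 in the other 10. Both list medians were near 0 in those 10, so their small difference there says nothing of fiber type. In tumors 3 and 4 the difference turned to -1.86 when genes with a mean under 1 TPM were left out, because 3 of the 11 slow genes then remained (Tnnc1, Tnni1 and Atp2a2) against 12 of 14 fast genes.

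The slow light chains Myl2 and Myl3 were listed at 0 in tumors 3 and 4, as Myl2 was in all 12. Tnni1, the troponin I of slow fibers, went the other way. It was at 73.3 TPM in tumor 3 and 51.8 TPM in tumor 4, above the 59.9 and 46.9 TPM of its fast counterpart Tnni2, and no other tumor exceeded 6.31 TPM. Tnni2 was above 0 in every tumor, up to 92.2 TPM in tumor 2, so it did not separate tumors 3 and 4. The slow myosin-binding protein gene Mybpc1 was at 2.71 and 2.02 TPM and listed at 0 in the other 10 tumors.

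Within 10 pairs of a fast gene and its slow counterpart, the fast gene took the larger part of the pair's TPM in 8 pairs in both tumors, with a median of 86.0% in tumor 3 and 89.3% in tumor 4. Troponin C was 96.8% fast in tumor 3 and 90.1% in tumor 4, and troponin T 97.3% and 95.4%. The exceptions were troponin I, at 45.0% and 47.5%, and the calcium pumps, at 6.71% and 6.31%. The slow pump Atp2a2 is made by most cells and was at 44.2 to 362 TPM in the other 10 tumors. With the median of the other 10 tumors subtracted from each gene first, the medians were 88.7% and 89.4%, again with 8 of 10 pairs over 50%. Several of the pairs were also fast outside tumors 3 and 4. In the other tumors with a value for the pair, Mylpf took 100% in all 10, Mybpc2 in all 8 and Myoz1 in all 4, whereas Tnnc2 took 0% in all 10 and Atp2a1 at most 1.26%. Casq1, the calcium-binding calsequestrin of fast fibers, took 83.0% and 79.2% in tumors 3 and 4 and between 0% and 99.9% in the others. Actn2, paired here with Actn3, is present in both fiber types.

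**Figure D3:**
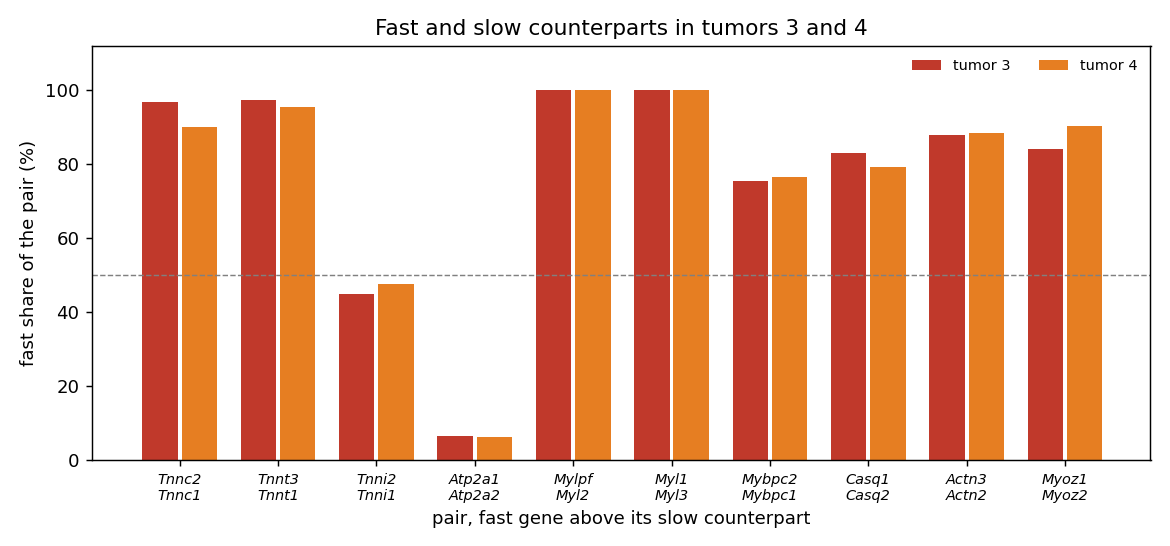
Share of the fast gene, in percent of the TPM of a pair of fast and slow counterparts, in tumor 3 (red) and tumor 4 (orange), for 10 pairs; the dashed line marks 50%. The fast gene lies above the line in 8 pairs in both tumors and below it for Tnni2 with Tnni1 and for Atp2a1 with Atp2a2.

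The sarcomere genes that both fiber types use had a median of 2.07 TPM in tumor 3 and 1.81 TPM in tumor 4, and at most 0.764 TPM in any other tumor. The skeletal actin Acta1 was the most abundant, at 168 and 115 TPM in tumors 3 and 4, with 19.0 TPM in tumor 6 as the next. Of the 15 shared sarcomere genes 8 were above every other tumor in both, among them Tcap, a cap protein of titin at the Z-disc, at 9.66 and 5.21 TPM, and Myot and Xirp2, which were listed at 0 in the other 10. Of the 7 that passed the filter 2 did so, beside 8.04% of all genes. Of 11 genes of excitation-contraction coupling 5 were above every other tumor, all of them under 3 TPM, and 1 of the 2 that passed the filter. Stac3, which was not among the 5, was at 2.04 and 3.76 TPM with up to 3.44 TPM elsewhere. Of 14 genes of muscle energy metabolism 4 were, 2 of the 11 that passed the filter, including the muscle glycogen phosphorylase Pygm at 4.53 and 4.36 TPM and the cytochrome oxidase subunit Cox6a2 at 5.27 and 3.97 TPM. Myoglobin (Mb), an oxygen store of oxidative fibers, was at 15.9 and 15.2 TPM and did not stand apart, since 4 of the other tumors were at 15.5 to 33.4 TPM.

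Genes that make new muscle were low. The satellite cell genes Pax7 and Myf5 were listed at 0 in tumors 3 and 4, and Myod1 did not exceed 0.161 TPM. The differentiation factors Myog, at 1.07 and 0.885 TPM, and Myf6, at 0.893 and 0.718 TPM, were above every other tumor, the highest of which were 0.206 and 0.095 TPM, though values this low cannot be set against a floor. Mef2c, the highest of the regulators, was at 3.06 and 4.74 TPM and reached 129 TPM in tumor 2. Chrng, the fetal subunit of the acetylcholine receptor, was listed at 0 in all 12 tumors, and no gene of the neuromuscular junction list stood above every other tumor. No gene of the heart list stood above every other tumor. Ryr2 was listed at 0 in all 12 and the heart myosin Myh6 did not exceed 0.0713 TPM, while Tnnt2 was at 147 and 115 TPM with up to 228 TPM elsewhere.

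Between the sister tumors, all 9 fiber genes at 1 TPM or more in both were lower in tumor 4 than in tumor 3. The ratio of tumor 4 to tumor 3 had a median of 0.761 and ran from 0.659 for Ckm to 0.984 for Myh2. Of the 15508 genes at 1 TPM or more in both tumors, 57.7% were lower in tumor 4, with a median ratio of 0.961. In the fast list 13 of 14 genes were lower in tumor 4 (median ratio 0.772), and in the epithelial list 8 of 8 (median ratio 0.764). The adipocyte genes went the opposite way: all 6 at 1 TPM or more in both were higher in tumor 4, with a median ratio of 2.92, and Adipoq, the gene of the adipocyte hormone adiponectin, was at 11.9 TPM in tumor 3 and 32.7 TPM in tumor 4. Smooth muscle genes were higher in tumor 4 in 5 of 7 cases. The part of fat, epithelium or smooth muscle in the levels of the fiber genes was not tested, and with 2 tumors of 1 mouse there is no replicate check on these ratios.

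**Figure D4:**
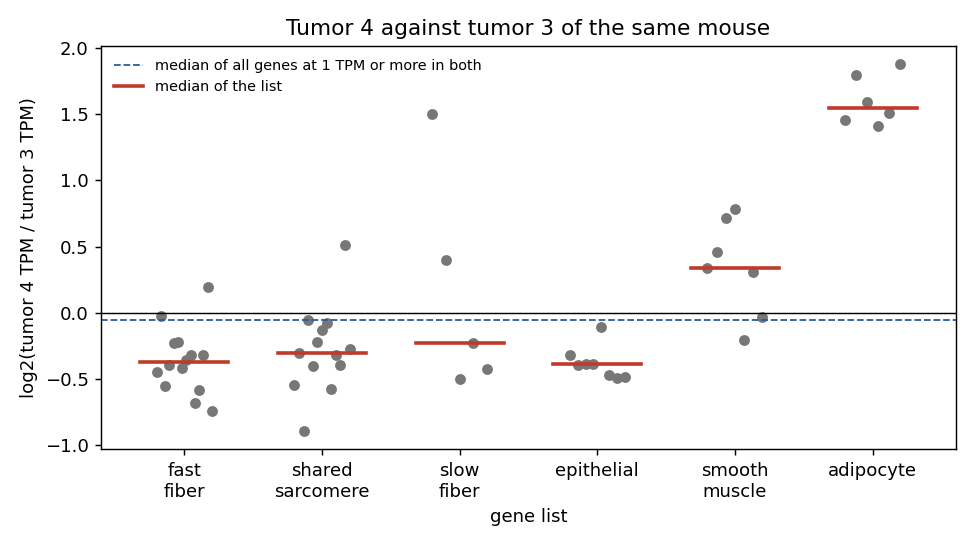
Log2 ratio of TPM in tumor 4 over tumor 3 for the genes of 6 lists that were at 1 TPM or more in both; each point is a gene, red lines are list medians and the dashed blue line is the median of 15508 genes. The fast fiber and epithelial medians, -0.37 and -0.39, lie below the dashed line and the adipocyte median of 1.55 lies above it.

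Smooth muscle genes were the other tissue list with several members above every other tumor, 3 of 8. They were Acta2 at 141 and 194 TPM with at most 104 TPM elsewhere, Tagln and Smtn, while Myh11, the defining myosin of smooth muscle, was at 2.72 and 3.44 TPM. All 8 smooth muscle genes passed the filter, where 8.04% of all genes that passed lay above every other tumor. Of the nerve and tendon lists 1 gene each did so, 1 of 6 and 1 of 5 that passed the filter, a single gene that cannot be set apart from that share. They were Prx at 11.7 and 10.2 TPM and Thbs4 at 19.4 and 15.2 TPM. No gene of the adipocyte, brown fat, skin and epithelial lists did so. The part of these tissues in the fiber gene values was not tested. The median of the 6 skin genes was at most 0.113 TPM in any tumor, with Krtdap and Krt77 listed at 0 in all of them. The tendon marker Tnmd was listed at 0 in tumors 3 and 4 and was at 12.4 TPM in tumor 9. The brown fat gene Ucp1 was also listed at 0 in tumors 3 and 4 and was at 20.1 TPM in tumor 5. Adipocyte genes had a median of 5.44 TPM in tumor 3 and 17.5 TPM in tumor 4. Between these medians lay those of 8.26 TPM in tumor 5 and 7.89 TPM in tumor 9, where the fiber genes summed to 1.00 and 23.2 TPM.

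Genes outside the muscle lists were also high in tumors 3 and 4 alone. Genes were ranked by the distance of their centred log2(TPM + 1) profiles over the 12 tumors from the median of the fiber genes. The fiber genes themselves were left out of the ranking, and some of them, such as Myh4 and Pvalb, lay nearer than any gene named here. The 10 nearest of the rest were Gm6871, Kcnc4, Usp17la, Gm13834, Pmp2, Aqp8, Klk14, Slc5a1, Odam and Myl1, and only Myl1 of these stood in a muscle list. Kcnc4, a voltage-gated potassium channel, was at 8.77 and 6.53 TPM and listed at 0 elsewhere. Klk14, a secreted kallikrein protease, was at 12.0 and 8.15 TPM with at most 1.11 TPM elsewhere. The largest gaps among genes in no list were those of Gm43998, at 196 and 148 TPM, and 4930412F09Rik, at 87.7 and 67.1 TPM, both on chromosome 6 and both listed at 0 in the other 10 tumors, followed by the kallikrein Klk10 at 170 and 115 TPM with at most 6.35 TPM elsewhere, Gm10800 and Kcnc4.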

How the data were processed

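Gene expression was measured by stranded poly(A) RNA sequencing of 12 mammary tumors. The authors trimmed adapters with fastq-mcf, aligned 75-bp paired-end reads with HISAT2 to mouse build GRCm38 and obtained TPM with StringTie 2.1.6 (version per the labels). The deposited TPM values, 1 per Ensembl gene and tumor without pooling, were used as they stand; how transcripts were summed per gene is not given in the sources used here. Columns were matched to tumors by animal and suffix.

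The fiber genes, gene lists, fiber pairs and alternatives were chosen with earlier results of these data known. No p-value was computed; Dixon's ratio over mice was used only to pick out values for a closer look. Values were compared as TPM or log2(TPM + 1), and the tumors of a mouse were averaged on the log scale where mice are counted. A gene was counted as called at a gap of 10-fold on that scale, with a mean of 1 TPM or more over 12 tumors. Genes were named from the 10 fiber genes, the highest and lowest gene of each of 17 lists, the genes of the fiber pairs, Epcam, Krt8, Trp53, Brca1, the 10 genes most like the fiber genes and the 5 with the largest gap in no list; other genes were chosen after their values were seen. Alternatives were a pseudocount of 0.1, other filters and gaps, list means, subtraction of the other tumors, TPM without mitochondrial genes (factor 1.04 to 1.08) and leaving out tumors. Positions are from GENCODE M21 (GRCm38), which placed 47137 of 47593 genes, and sequences from the RefSeq table of GRCm38.p6. Python 3.11.15, numpy 2.4.6, pandas 2.3.3 and matplotlib 3.10.9 were used.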

Additional observations from a re-analysis of the deposited data

Results flagged for a closer look

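Each of the 10 fiber genes and the median of each of 17 lists, on the log2(TPM + 1) scale and averaged over the tumors of a mouse, was checked for a single mouse standing apart from the rest, with Dixon's gap to range ratio over 9 mice. Of 27 values 13 were picked out, 12 of them in the mouse of tumors 3 and 4. The genes were chosen because this mouse stood apart and the fast fiber list holds most of them, so for these the outcome was fixed by the choice. The slow fiber list holds only Myh7 of them and the muscle energy list only Ckm. None of them is in the shared sarcomere, cardiac, excitation-contraction or myogenic lists. All lists were chosen with earlier results of these data known, so the usual chance rate of about 1 in 20 does not apply. In that mouse Tnnt3 was at 5.41 (nearest mouse 2.64), Tnnc2 at 5.12 (nearest 0), Pvalb at 4.33 (nearest 0), Myh4 at 3.90 (nearest 0.34), Atp2a1 at 3.75 (nearest 0.85) and Actn3 at 3.51 (nearest 0.65). Myh1, Myh2, Myh7 and Ckm were not picked out.

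The list medians of the same mouse that were picked out were those of the fast fiber genes at 3.82 (nearest 0.18), the shared sarcomere genes at 1.55 (nearest 0.82), the slow fiber genes at 1.04 (nearest 0.18), the cardiac genes at 0.81 (nearest 0.32), the excitation-contraction genes at 0.70 (nearest 0.24) and the myogenic regulators at 0.45 (nearest 0.065). The remaining value was the median of the skin genes in tumor 5, at 0.15 (nearest 0.073). The cardiac, excitation-contraction, myogenic and skin medians all lie under 1 TPM.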

How the results depend on the processing

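The Myh4 share of 67.0% was 67.3% above the other 10 tumors and is 65.3% or 68.6% in either tumor alone; with 2 tumors, leaving out 1 cannot show stability. The fast share of the pairs, 87.6% as a mean of both tumors, ranged from 86.0% to 89.3% with either left out and was 77.5% as a mean over pairs, which gives the pump and troponin I pairs full weight. The fast minus slow difference of 2.78 ranged from 2.51 to 3.05 with either left out, and was 3.18 above the other tumors, 3.51 with a pseudocount of 0.1 and 2.09 with list means; with genes under a mean of 1 TPM left out it was -1.86. The median of the fiber genes in the mouse of tumors 3 and 4 exceeded that of the other mice by 3.82, or 7.05 with a pseudocount of 0.1, since the median of the other mice is 0 TPM.

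The 6 genes called at 10-fold became 17 with the pseudocount of 0.1, 28 at 4-fold and 9 without tumors 2 and 9, and ranged from 6 to 10 with each tumor left out, the highest without tumor 4. Of the fiber genes 2 were called; 5 were with the pseudocount of 0.1, 1 with a mean of 5 TPM or more, 6 at 4-fold, 5 without tumors 2 and 9 (chosen after seeing the data), and 2 to 4 with each tumor left out, the highest without tumor 2. The fiber genes above every other tumor, 6, ranged from 6 to 8 with each tumor left out, also a choice made after seeing the data, the highest without tumor 9. The log2 ratio of tumor 4 over tumor 3 over all muscle lists, -0.30, was between -0.39 and -0.34 under its alternatives. No paired analysis was possible because the study holds a single group of tumors. Without read numbers, values under 1 TPM cannot be set against a floor, and the counts of list genes above every other tumor include such values.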

Other observations

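Tumors 3 and 4 were close to each other over all genes as well. Their values differed by a median of 0.21 on the log2 scale over 15508 genes at 1 TPM or more in both, against 0.24 to 0.39 for the 3 pairs among tumors 10, 11 and 12 of another mouse, and none of these genes had exactly the same deposited value in both, with no tolerance allowed.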
